A study of Homo sapiens with 4 samples.

Results

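A set of 10 genes of iron handling and of the lipid side of ferroptosis was followed across 4 RNA sequencing libraries of human melanoma cell lines. The set holds the iron importers TFRC and SLC39A14, the iron exporter SLC40A1, the ferritin subunits FTH1 and FTL with the ferritin receptor NCOA4, the lipid peroxide defence genes GPX4 and AIFM2, and the lipid remodelling genes ACSL4 and LPCAT3. Members were taken by gene name from the deposited table of 18175 genes and loci, and the names were chosen with earlier results of these data known. Of the 10, 9 were analysed and all 9 passed the filter on low values, an FPKM (read count scaled to gene length and library depth) of 1 or more in 2 or more libraries, as did 13501 genes in all; SLC40A1 was not analysed here.

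The libraries came from A375 and SK-MEL-28, both established human melanoma lines. Cells of each line received either siLINC01291, named for its target, the long non-coding RNA LINC01291, or siNC, which its name marks as a negative control. Each of the 4 groups, siNC and siLINC01291 in A375 and the same pair in SK-MEL-28, is 1 library, so a difference within a line has no replicate check, and the lines are the only replication of the treatment. A treatment EL appears in the labels with no explanation, and siRNA sequences, doses and times are not stated in them.

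Ferroptosis is a form of cell death that runs on iron and on peroxides of membrane lipids. Cells take up iron bound to transferrin through TFRC and free iron through carriers such as SLC39A14, store it in ferritin shells of FTH1 and FTL, and free it again when NCOA4 carries ferritin to the lysosome. ACSL4 and LPCAT3 place polyunsaturated fatty acids into phospholipids, which oxidise readily, while the selenoenzyme GPX4 reduces the resulting lipid peroxides and AIFM2 (also called FSP1) regenerates the radical-trapping form of coenzyme Q. Melanoma cells of differentiated and dedifferentiated states are known to differ in their sensitivity to this form of death.

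The libraries held between 29351240 and 31815336 counts over the listed genes, and the 9 members took 0.433 and 0.423% of them in the A375 libraries and 0.350 and 0.329% in the SK-MEL-28 libraries (siNC, then siLINC01291). The targeted transcript was lower in both lines: LINC01291 stood at 34.7% of the siNC level in A375 (interval 30.3 to 39.6%) and at 44.7% in SK-MEL-28 (interval 39.9 to 50.01%). Intervals on such ratios are 95% exact binomial intervals of the counts here and below, and they cover counting error only. All 8 melanocyte lineage markers examined reached an FPKM of at least 1 in SK-MEL-28 and 5 of 8 did in A375, where MLANA, TYR and DCT were below 1. Their summed FPKM was 94.5 and 134 in A375 and 1622 and 1939 in SK-MEL-28. Of 5 epithelial markers, 3 were analysed. KRT18 led them with an FPKM of 71.1 in both A375 libraries against 4.90 and 4.60 in the SK-MEL-28 libraries. KRT8 was also higher in A375. CDH1 went the other way, with an FPKM of 0.117 and 0.139 in A375 against 0.765 and 0.889 in SK-MEL-28. The 2 blood or fibroblast markers analysed of 6, PDGFRB and LUM, summed to an FPKM between 4.81 and 8.09. As in any bulk sample, fewer cells expressing a gene and less RNA per cell cannot be told apart.

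The members spanned a wide range of levels, compared here per length in FPKM. FTL, the ferritin light chain, led in every library with 1816 in A375 siNC, 1761 in A375 siLINC01291, 1100 in SK-MEL-28 siNC and 1071 in SK-MEL-28 siLINC01291. FTH1, the heavy chain that holds the ferroxidase centre, followed with 717, 733, 545 and 530 in the same order of libraries. Both ferritin genes thus sat among the most abundant transcripts of each library, FTL at rank 10, 10, 16 and 17 of all listed genes. The transferrin receptor TFRC came next with 99.7, 95.5, 75.1 and 73.2, followed by the ferritin receptor NCOA4 with 39.5, 39.6, 56.1 and 48.7. LPCAT3 was last in each library, at 2.57, 2.77, 1.71 and 1.33. The order of GPX4 against SLC39A14 and of AIFM2 against ACSL4 was not the same in all libraries, so neither pair can be ranked. SLC39A14 lay above GPX4 in SK-MEL-28 siNC only, and ACSL4 above AIFM2 in A375 siLINC01291 only.

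**Figure D1:**
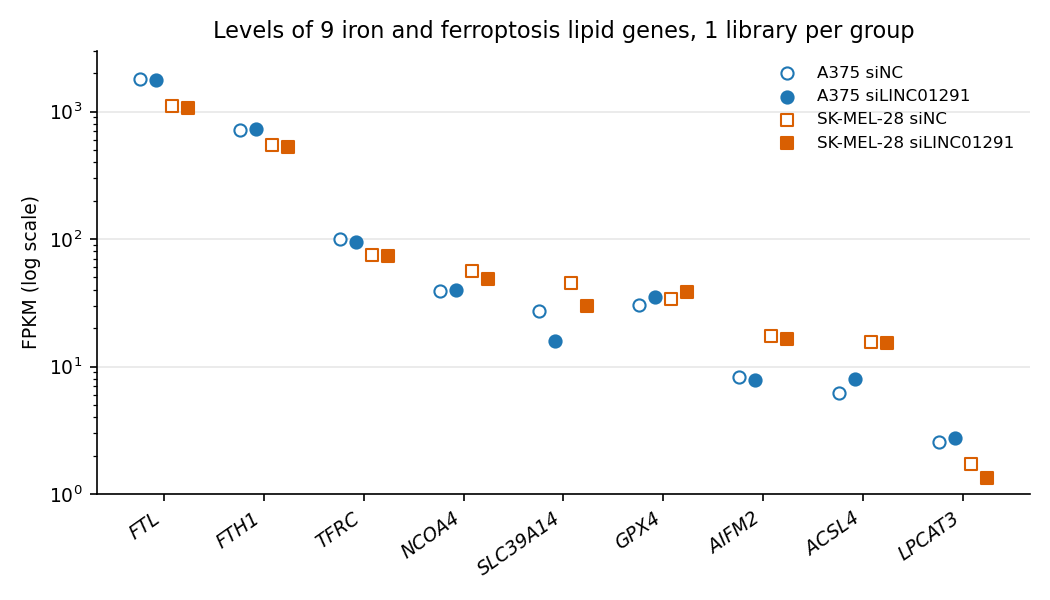
FPKM on a log scale of the 9 members in the 4 libraries (open symbols siNC, filled symbols siLINC01291; circles A375, squares SK-MEL-28; 1 library each, no error bars). FTL and FTH1 stand above all other members, LPCAT3 lies lowest between 1.33 and 2.77, and SLC39A14 is the member whose filled symbols fall clearly below the open ones in both lines.

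The first comparison asked which members shifted with siLINC01291 in both lines together. SLC39A14, the ZIP14 carrier that imports iron not bound to transferrin as well as zinc and manganese, fell, and it was the only one of the 9 to pass. It had 5822 counts in A375 siNC and 3507 in A375 siLINC01291, and 9249 counts in SK-MEL-28 siNC and 6023 in SK-MEL-28 siLINC01291. In FPKM these are 27.2 and 15.9 in A375 and 45.4 and 29.6 in SK-MEL-28. The siLINC01291 library was the lower one in both lines, while the treated SK-MEL-28 library still lay above the untreated A375 library, so the ranges of the treatments overlap across lines.

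SLC39A14 was left at 56.8% of the siNC level in A375 (interval 54.5 to 59.3%) and at 64.0% in SK-MEL-28 (interval 61.9 to 66.1%). In the joint edgeR fit, whose p-values are Benjamini-Hochberg adjusted over the 13501 genes, it fell by 0.73 in log2 (SE 0.09, adjusted p = 0.0314), a 1.66-fold decrease seen in 2 of 2 lines. Among all genes tested, 0.674% fell and 0.222% rose by the same rule (0.896% in either direction), against 1 fallen and 0 risen of the 9 members. At an unadjusted p under 0.05, 0 members were higher in edgeR, 0 in DESeq2 and 1, GPX4, in limma. The change of SLC39A14 was the 240th lowest of the 13501. Its call was lost in limma on log2(FPKM + 1) (adjusted p = 0.0973), with an FPKM minimum of 5 (edgeR adjusted p = 0.0618) and without the cell line as a block (edgeR adjusted p = 1.00), whereas its log2 change stayed between -0.74 and -0.67. DESeq2 gave an adjusted p of 1.78e-06.

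The other 8 members did not pass, which does not show that they were unchanged. The iron storage genes had the smallest changes over both lines, -0.04 for FTH1 (SE 0.07) and -0.07 for FTL (SE 0.07). TFRC stood at -0.08 (SE 0.07), NCOA4 at -0.13 (SE 0.09) and AIFM2 at -0.11 (SE 0.09). GPX4 stood at 0.15 (SE 0.09), ACSL4 at 0.14 (SE 0.11) and LPCAT3 at -0.15 (SE 0.16), with edgeR adjusted p between 0.446 and 0.828 for all 8. Of the 9 estimates 7 were below 0, with a median of -0.08, beside a median of 0.01 over all genes tested.

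**Figure D2:**
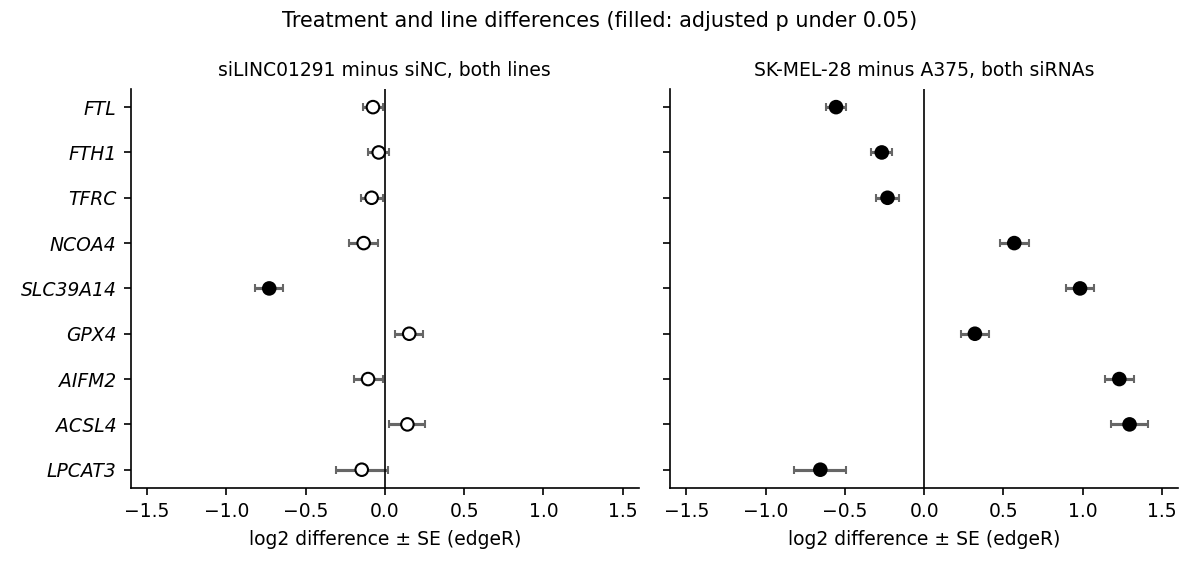
Log2 difference of each member (points, with bars of 1 SE; filled where the edgeR adjusted p was under 0.05) for siLINC01291 against siNC with the cell line as a block (left) and for SK-MEL-28 against A375 with the treatment as a term (right). On the left SLC39A14 at -0.73 is the single filled point; on the right all 9 points are filled, from -0.65 for LPCAT3 to 1.29 for ACSL4.

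Within a line, the members of each role were then compared one by one. At 1.5-fold, SLC39A14 was the only member lower in A375, where 3.83% of 13244 expressed genes were that much lower and 4.07% higher, and the only one lower in SK-MEL-28, where the shares of 12336 expressed genes were 4.99 and 6.45%. No member was 1.5-fold higher in either line. The median log2 ratio of the members was -0.03 in A375 and -0.07 in SK-MEL-28, against 0.00 and 0.01 over all expressed genes.

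Of the iron uptake genes, TFRC had 24060 and 23767 counts in A375 and 17260 and 16788 in SK-MEL-28 (siNC, then siLINC01291). The treated library held 93.2% of the siNC level in A375 (interval 91.6 to 94.9%) and 95.6% in SK-MEL-28 (interval 93.6 to 97.7%). Both ratios were below 100% by more than counting error, and the joint change did not pass the test. Their size also depends on the scaling, which the intervals do not cover. The log2 ratio was -0.10 in A375 and -0.06 in SK-MEL-28 with the scaling used. With the deposited CPM it was -0.06 and -0.04.

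The ferritin subunits moved by similarly small amounts. FTL went from 48990 to 48970 counts in A375, which is 94.3% of siNC after scaling (interval 93.2 to 95.5%), and from 28239 to 27457 in SK-MEL-28, which is 95.6% (interval 94.0 to 97.2%). FTH1 went from 44502 to 46904 counts in A375, 99.5% of siNC (interval 98.2 to 100.8%), and from 32210 to 31232 in SK-MEL-28, 95.3% (interval 93.8 to 96.8%). The A375 ratio of FTH1 has no firm sign: its log2 value was -0.01 with the scaling used and 0.03 with the deposited CPM. By the same change of scaling, FTL went from -0.08 to -0.04 in A375. In SK-MEL-28 both FTL and FTH1 went from -0.07 to -0.04. The ratio of FTL to FTH1 in FPKM was 2.53 and 2.40 in the A375 libraries and 2.02 in both SK-MEL-28 libraries, so the balance of the subunits differed more between the lines than between the siRNAs.

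Ferritin counts are uncertain to the extent that reads of near-identical pseudogenes can be placed on the wrong copy. The table lists 8 FTH1 pseudogenes, led by FTH1P2 (235, 240, 214 and 147 counts), FTH1P8 (222, 188, 180 and 139 counts) and FTH1P7 (65, 56, 42 and 42 counts). Together these 8 hold 1.22 to 1.67% of the FTH1 count. The 2 FTL pseudogenes, FTLP3 and FTLP12, hold 0.108 to 0.168% of the FTL count. Adding them to their parents changed no call. NCOA4, which hands ferritin to autophagy, had 4874 and 5045 counts in A375 and 6599 and 5715 in SK-MEL-28. It stood at 97.7% of siNC in A375 (interval 93.9 to 101.6%) and at 85.1% in SK-MEL-28 (interval 82.1 to 88.2%).

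Iron-responsive elements are RNA hairpins that bind the iron regulatory proteins when iron is scarce, and they are shown here because the members that carry them are the classic targets of that control. Hairpins in the 5' UTR, as in ferritin and SLC40A1 mRNA, hold back translation, which RNA sequencing does not read; those in the 3' UTR of TFRC protect its mRNA from decay, which RNA levels do read. A search for a C, 5 bases, the loop CAGTGN and 5 bases that can pair with the first 5 (G-T pairs allowed, sense strand only) was run on 1 principal protein-coding transcript per gene of GENCODE 29, an annotation of GRCh38. It matched 1 site in the 5' UTR of FTH1, FTL and SLC40A1 each and 4 sites in the 3' UTR of TFRC, printed below with the loop in capitals.
FTH1, 5' UTR: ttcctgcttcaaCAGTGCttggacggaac
FTL, 5' UTR: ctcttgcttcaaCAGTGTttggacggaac
SLC40A1, 5' UTR: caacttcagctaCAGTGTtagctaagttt
TFRC, 3' UTR, base 3400: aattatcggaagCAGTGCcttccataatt
TFRC, 3' UTR, base 3804: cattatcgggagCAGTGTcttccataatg
TFRC, 3' UTR, base 3869: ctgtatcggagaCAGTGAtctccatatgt
TFRC, 3' UTR, base 3916: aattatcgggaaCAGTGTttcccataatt

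Such a match is rare: it occurs in the 5' UTR of 0.107% of 18716 genes and in the 3' UTR of 0.555% of 18934 genes, and TFRC is the 1 gene with at least 4 in its 3' UTR. The loops of the TFRC sites begin at bases 3400, 3804, 3869 and 3916 of a transcript of 5111 bases, and those of FTH1 and FTL at bases 71 and 47. A match is a description of the letters and not a measurement of binding. The 3 members with a match that were analysed, FTH1, FTL and TFRC, had log2 changes of -0.04, -0.07 and -0.08 with siLINC01291 over both lines, and none passed (edgeR adjusted p = 0.828, 0.627 and 0.611).

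**Figure D3:**
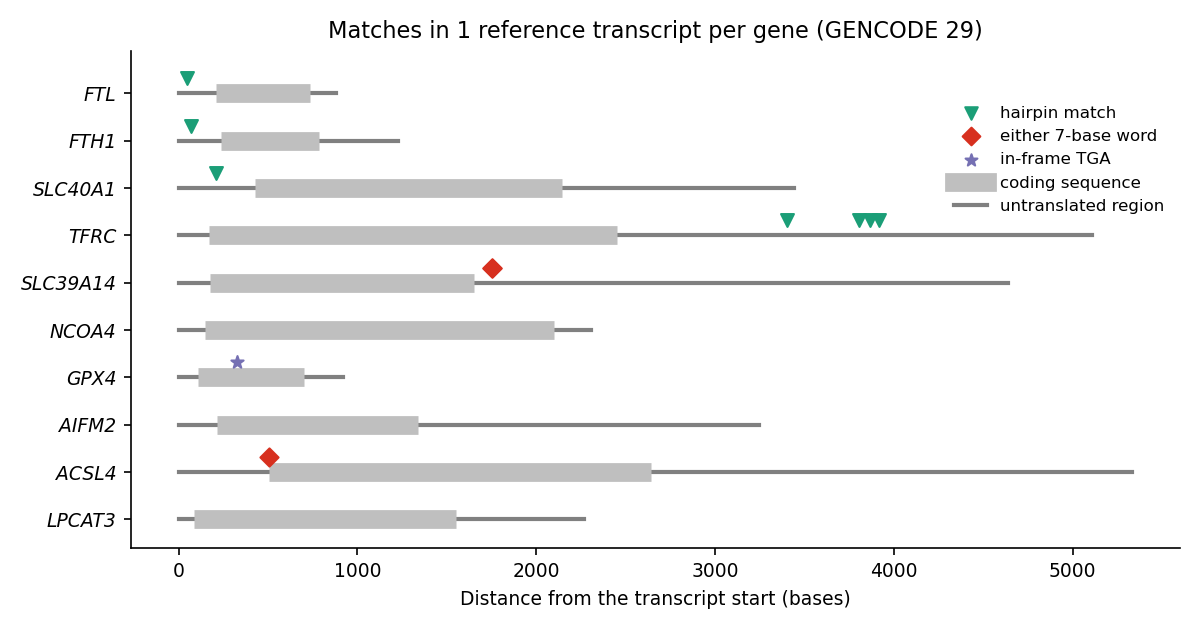
Positions of the matches in 1 GENCODE 29 transcript per member, in bases from the transcript start (thin lines untranslated regions, thick bars coding sequence, triangles hairpins, diamonds either of the 7-base words, star the in-frame TGA of GPX4). The hairpins lie in the 5' UTRs of FTL, FTH1 and SLC40A1 and in the 3' UTR of TFRC; SLC39A14 alone has a word inside its 3' UTR, and the word of ACSL4 spans its start codon.

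The 7-base words CTATGAA and TCTATGA were also searched, on the sense strand; they overlap each other and were picked in an earlier analysis on the log2 ratios of these same libraries, SLC39A14 included, so the values by word are a description only. SLC39A14 carries both words, overlapping, at base 1754 of its transcript of 4641 bases, inside the 3' UTR, and 3 of its 4 basic protein-coding transcripts have them there. The remaining 1, with a 3' UTR of 125 bases, does not. FTH1, FTL, TFRC, NCOA4, GPX4, AIFM2 and LPCAT3 hold neither word anywhere in the transcript searched. ACSL4 holds CTATGAA once, across the boundary of its 5' UTR and its coding sequence, shown here with the word in capitals because the word contains the ATG start codon.
ACSL4, start codon: agcctttccaCTATGAAacttaagcta

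Among tested genes with a searched transcript, 1547 hold either word in the 3' UTR. Their median log2 change was -0.11, and 4.65% of them fell. The 385 genes with the joined word TCTATGAA in the 3' UTR, SLC39A14 among them, had a median of -0.24, and 10.9% fell. The 2002 genes with a word in the coding sequence and none in the 3' UTR had a median of -0.04 with 0.300% fallen. The 7370 genes with no word wholly inside 1 region had a median of 0.03 with 0.109% fallen. ACSL4 counts among these, since its word crosses a boundary. As the member that passed, SLC39A14 (-0.73) was bound to lie below the median of each of these groups, so that comparison tests nothing. In the joined-word group, 1 gene in 4 lay at or below -0.50. The groups were not matched for 3' UTR length.

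The lipid peroxide defence genes went in different directions, neither past the test. GPX4, the peroxidase that detoxifies lipid peroxides, had 1900 and 2253 counts in A375 and 2034 and 2289 in SK-MEL-28, or 30.4 and 34.95 FPKM and 34.2 and 38.5 FPKM. The siLINC01291 library was the higher one in both lines, at 111.9% of siNC in A375 (interval 105.2 to 119.0%) and 110.6% in SK-MEL-28 (interval 104.1 to 117.5%). GPX4 is a selenoprotein, and its coding sequence is read through a TGA codon that inserts selenocysteine, here codon 73 of the GENCODE 29 transcript with the TGA in capitals.
GPX4, selenocysteine codon: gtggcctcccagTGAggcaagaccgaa

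AIFM2, the coenzyme Q oxidoreductase that acts in parallel to GPX4, had 1325 and 1294 counts in A375 and 2629 and 2506 in SK-MEL-28. It stood at 92.2% of siNC in A375 (interval 85.3 to 99.6%) and at 93.7% in SK-MEL-28 (interval 88.7 to 98.99%). Its FPKM was 8.33 and 7.89 in A375 against 17.4 and 16.6 in SK-MEL-28, so the lines did not overlap and the siRNAs did.

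The lipid remodelling genes had opposite signs in the lines. ACSL4, the acyl-CoA synthetase that activates arachidonic and adrenic acid, had 1917 and 2552 counts in A375 (6.21 and 8.02 FPKM) and 4558 and 4515 in SK-MEL-28 (15.5 and 15.4 FPKM). It was at 125.6% of siNC in A375 (interval 118.4 to 133.4%) and at 97.4% in SK-MEL-28 (interval 93.4 to 101.5%). LPCAT3, the acyltransferase that inserts these acyl chains into phospholipids, had few reads, 373 and 415 counts in A375 and 237 and 183 in SK-MEL-28. It was at 105.0% of siNC in A375 (interval 91.1 to 121.1%) and at 75.9% in SK-MEL-28 (interval 62.2 to 92.4%). Whether the lines differ in these responses was not tested, since 1 library per group leaves no residual for it.

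**Figure D4:**
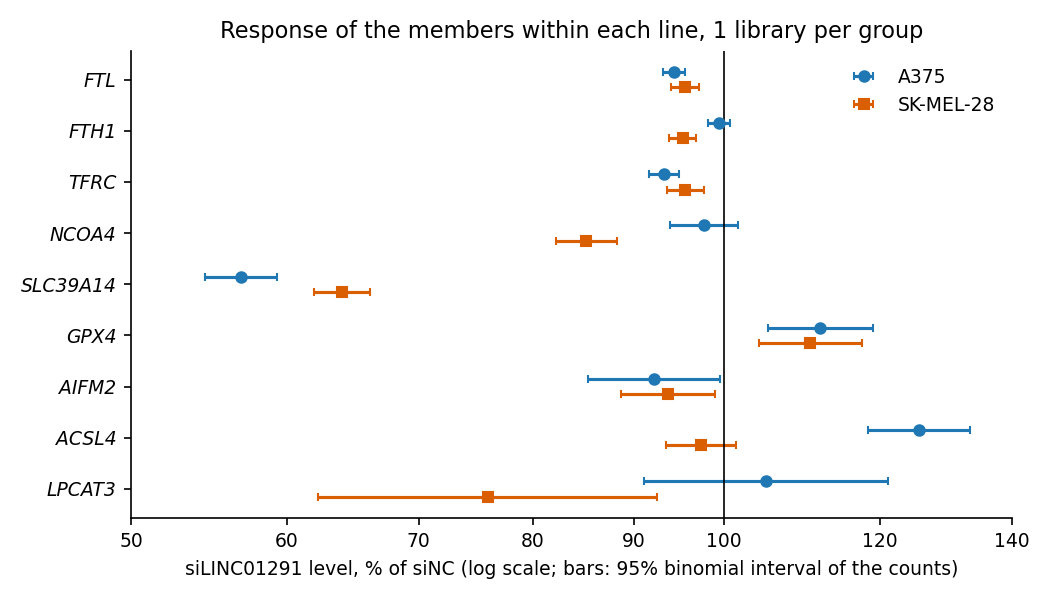
Level in the siLINC01291 library as percent of the siNC library of the same line (log scale) for the 9 members, with 95% exact binomial intervals of the counts as bars (circles A375, squares SK-MEL-28; 1 library per group). SLC39A14 lies at 56.8 and 64.0%, the other members between 75.9 and 125.6%; the intervals of the lines do not overlap for SLC39A14, ACSL4, NCOA4 and FTH1.

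The second comparison set SK-MEL-28 against A375, with the treatment as the other term. All 9 members differed between the lines: 5 were higher and 4 lower in SK-MEL-28. Line differences were the rule, since 72.4% of all 13501 genes passed, 36.1% higher and 36.3% lower in SK-MEL-28, so the count of members is to be read against that share.

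ACSL4 was 2.45-fold higher in SK-MEL-28 (log2 1.29, SE 0.11, edgeR adjusted p = 9.65e-05), AIFM2 2.35-fold higher (log2 1.23, SE 0.09, edgeR adjusted p = 4.58e-05) and SLC39A14 1.98-fold higher (log2 0.98, SE 0.09, edgeR adjusted p = 0.000101). NCOA4 was 1.48-fold higher and GPX4 1.25-fold higher. On the other side FTL was 1.47-fold lower (log2 -0.56, SE 0.07, edgeR adjusted p = 0.000358), LPCAT3 1.57-fold lower, FTH1 1.20-fold lower and TFRC 1.17-fold lower. The storage genes and TFRC thus stood lower, and the ferritin receptor, the free iron importer, AIFM2 and ACSL4 higher, in SK-MEL-28 than in A375.

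These differences were not large for this pair of lines. The size of the ACSL4 difference exceeded that of 73.1% of all genes tested, that of AIFM2 71.4% and that of TFRC 19.1%. The differences of GPX4, TFRC and LPCAT3 missed the threshold under at least 1 alternative (DESeq2 adjusted p = 0.0527, 0.0546 and 0.0853). The melanocyte marker levels given above move with the lines, and their part in these differences was not tested.

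The members were then set among 136 further genes of the same pathways, kept in 7 lists by role, which were drawn up with earlier results of these data known and so are no independent evidence. Of 104 that could be tested, 3 fell and 0 rose with siLINC01291 over both lines (edgeR, adjusted p under 0.05), with a median of -0.03. Over all genes tested, 0.674% fell and 0.222% rose by that rule. At an unadjusted p under 0.05, edgeR had 14 lower and 8 higher, where 8.37% of all genes tested were lower and 8.53% higher by that rule; DESeq2 called the same numbers, 3 and 0, and limma 0 and 0. SLC7A11, the cystine importer that feeds glutathione and so GPX4, fell by 2.00 in log2 (SE 0.14, edgeR adjusted p = 0.0122). TXNRD1, thioredoxin reductase, fell by 0.65 (SE 0.07, edgeR adjusted p = 0.0218). ACSL1, an acyl-CoA synthetase of the same family as ACSL4, fell by 0.78 (SE 0.11, edgeR adjusted p = 0.0468), a call that was lost with DESeq2 size factors (edgeR adjusted p = 0.0515) and in limma (adjusted p = 0.152). Limma also missed TXNRD1 (adjusted p = 0.0840) and SLC7A11 (adjusted p = 0.0531). With an FPKM minimum of 5 the calls of ACSL1 (edgeR adjusted p = 0.0809) and TXNRD1 (edgeR adjusted p = 0.0518) were lost, and without the cell line as a block those of all 3 genes (edgeR adjusted p = 1.00). Beside SLC39A14, these are the only genes of the lists that passed.

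The FPKM of ACSL1 was 8.65 and 5.87 in A375 and 29.98 and 15.8 in SK-MEL-28, 66.1% of siNC (interval 61.2 to 71.3%) and 51.8% (interval 49.5 to 54.2%), where ACSL4 was at 125.6 and 97.4%. ACSL1 was also higher in SK-MEL-28 than in A375, as ACSL4 was. The 3 genes of the wider lists that fell differ in where they hold the words. TXNRD1 holds each word once in its coding sequence and neither in its 3' UTR. SLC7A11 holds each word 3 times, all in its 3' UTR, where they form the joined word at bases 8684 and 9186. ACSL1 also holds the joined word in its 3' UTR, and 1 match of each word in its coding sequence. A match of each gene is shown with CTATGAA in capitals.
TXNRD1, coding sequence: tcaagtgtgaCTATGAAaatgttccaa
SLC7A11, 3' UTR: taggtactatCTATGAAtgtatttaaa
ACSL1, 3' UTR: tacctgatttCTATGAAatgtgtttga

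Of 10 tested genes of iron uptake and transport, 0 passed in edgeR, DESeq2 or limma and the median was -0.05; 4 were lower and 0 higher at an unadjusted edgeR p under 0.05, against 8.37 and 8.53% of all genes tested. The haemochromatosis protein HFE stood at -0.46 (SE 0.14), and the mitochondrial iron importers SLC25A28 (mitoferrin 2) at -0.45 (SE 0.12) and SLC25A37 (mitoferrin 1) at -0.34 (SE 0.09), each lower in both lines (edgeR adjusted p between 0.136 and 0.188). The endosomal iron transporter SLC11A2, named after its values were seen, stood at 0.20 (SE 0.09).

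Of 13 tested genes of iron sensing and ferritin handling, 0 passed in any of the 3 tools and the median was -0.00. At an unadjusted edgeR p under 0.05, 1 was lower and 2 higher, against 8.37 and 8.53% of all genes tested. IREB2, an iron regulatory protein that binds such hairpins, stood at -0.32 (SE 0.13), at -0.08 for A375 alone and -0.56 for SK-MEL-28 alone. ACO1, the other iron regulatory protein, named after its values were seen, stood at -0.002 (SE 0.09), at -0.04 for A375 alone and 0.04 for SK-MEL-28 alone. The autophagy genes WIPI2 (0.35) and TAX1BP1 (0.24), the latter a partner of NCOA4 in ferritin turnover, were higher in both lines and did not pass (edgeR adjusted p = 0.261 and 0.222). Of 22 tested genes of heme and iron-sulfur clusters, 0 passed in any of the 3 tools (unadjusted edgeR p under 0.05: 1 lower, 4 higher), with a median of 0.05. Ferrochelatase (FECH, 0.36), which puts iron into heme, and biliverdin reductase (BLVRA, 0.35) were higher in both lines and did not pass (edgeR adjusted p = 0.160 for each).

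Of 25 tested genes of lipid peroxide and radical defence, 2 fell and 23 did not pass, with a median of -0.14. Over all genes tested, 0.674% fell and 0.222% rose by that rule. At an unadjusted edgeR p under 0.05, 6 of the 25 were lower and 2 higher, against 8.37 and 8.53% of all genes tested. PDSS2, which builds the side chain of the coenzyme Q that AIFM2 reduces, stood at 0.59 (SE 0.12, edgeR adjusted p = 0.0940), at 138.8% of siNC in A375 and 163.5% in SK-MEL-28. GCH1, the first enzyme of tetrahydrobiopterin synthesis, stood at -0.38 and the phospholipase PLA2G6 at 0.37. Of 19 tested genes of lipid supply and remodelling, 1 fell and 18 did not pass, with a median of -0.02. Of these 19, 2 were lower and 0 higher at an unadjusted edgeR p under 0.05. The elongase ELOVL2 (-0.44), the desaturase FADS2 (0.25) and FAR1 (-0.25), which makes fatty alcohols for ether lipids, did not pass.

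Of 7 tested lipid peroxidation enzymes and related genes, 0 passed in any of the 3 tools, 0 had an unadjusted edgeR p under 0.05 and the median was -0.01. CHAC1 (-0.67, SE 0.41) and SAT1 (0.34, SE 0.22) had opposite signs in the lines, and CYB5R1 stood at 0.17. Of 8 tested genes of selenoprotein synthesis, which GPX4 depends on, 0 passed in any of the 3 tools, 0 had an unadjusted edgeR p under 0.05 and the median was -0.04, with SEPSECS at -0.19, LRP8 at -0.16 and EEFSEC at 0.14. Over all genes tested, edgeR called 91 lower and 30 higher, so that fallen genes outnumbered risen ones outside these lists too.

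**Figure D5:**
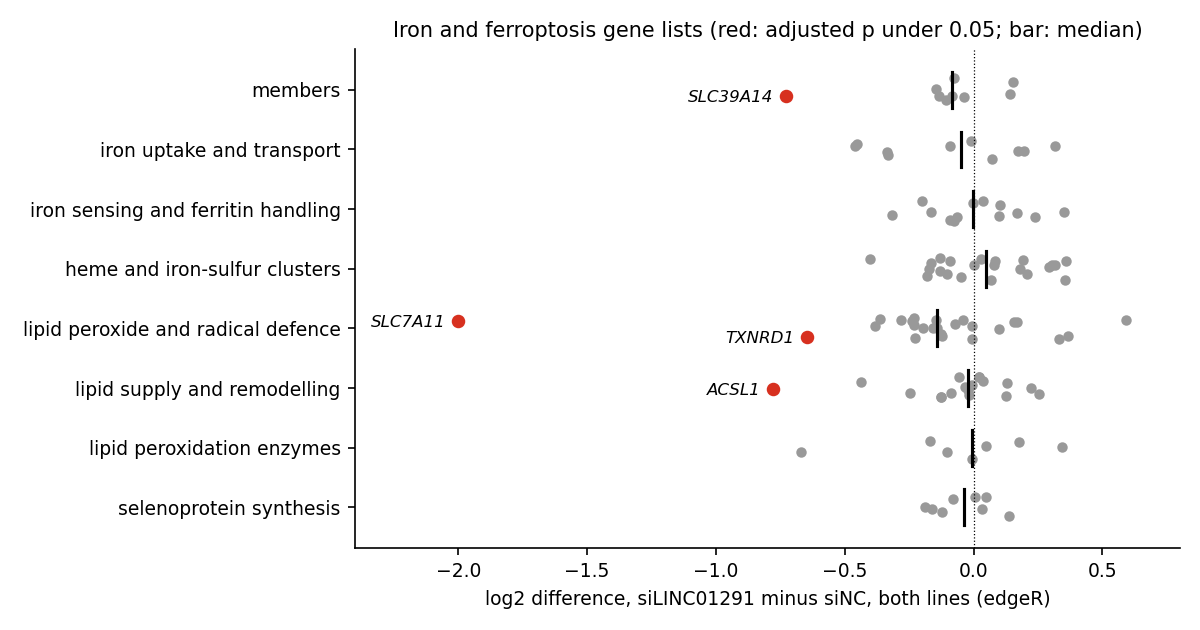
Log2 difference of siLINC01291 against siNC over both lines (edgeR) for each tested gene of the members and of the 7 wider lists; 1 dot is 1 gene, black bars are list medians and red dots passed at an adjusted p under 0.05. The 4 red dots, SLC7A11, ACSL1, SLC39A14 and TXNRD1, all lie below 0, and the medians lie between -0.14 and 0.05.

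Genes with the most similar pattern were sought for the 3 members with the largest joint changes, by the Euclidean distance of centred log2(CPM + 1) over the 4 libraries, where candidates reached an FPKM of 5 in all of them (5643 or 5644 genes). For SLC39A14 the nearest were FABP5P7 (distance 0.15), a pseudogene whose reads may come from its parent, MALSU1 (0.19), a mitochondrial ribosome factor, and NUP50 (0.29), a nuclear pore protein. The log2 ratio of NUP50 was -0.89 for A375, and -0.86 for SK-MEL-28. For GPX4 they were KIDINS220, MRPL57 and PSMB8 (distances 0.03), and for LPCAT3 HMGB1P6 (0.06, a pseudogene and uncertain), ENAH (0.08) and SMC2 (0.09). With 4 libraries, such likeness is a description only.

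In GENCODE 29 on GRCh38, which is not the build of the submitters' notes, SLC39A14 (ENSG00000104635) spans chromosome 8 from 22367249 to 22434129 on the + strand. FTL (ENSG00000087086) lies on chromosome 19 from 48965301 to 48966878 and GPX4 (ENSG00000167468) on the same chromosome from 1103926 to 1106791, both on the + strand. On the - strand lie FTH1 (ENSG00000167996) on chromosome 11 from 61959718 to 61967660, TFRC (ENSG00000072274) on chromosome 3 from 196027183 to 196082189, and ACSL4 (ENSG00000068366) on chromosome X from 109624244 to 109733403. NCOA4 (ENSG00000266412) and AIFM2 (ENSG00000042286) are both on the - strand of chromosome 10, from 46005088 to 46030714 and from 70098223 to 70132934, and LPCAT3 (ENSG00000111684) is on the - strand of chromosome 12 from 6976186 to 7018510.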

How the data were processed

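Per the labels' protocols, fastp removed adapters, duplicates and poor reads from the oligo(dT)-selected libraries, rRNA reads were taken out, HISAT2 did the alignment, StringTie the assembly of new transcripts and HTSeq the counting. The submitters' processing notes list hg19, DESeq2 and edgeR and give no role. Removing duplicates before counting can lower the counts of very abundant genes such as FTL and FTH1. No label says if counting used strand. The counts deposited by the authors are whole numbers and not normalised. The FPKM were scaled by the authors to gene length and depth, per the file headers. The CPM were scaled by the authors to each library's count total. The TPM deposited by the authors were not used for any comparison.

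Here, edgeR 4.0.16 (R 4.3.3) with TMM factors was fitted to the 13501 genes that reach an FPKM of 1 in 2 or more libraries, with terms for cell line and treatment, which leaves 1 residual degree of freedom. Libraries are paired by cell line; nothing says that libraries came from separate cultures beyond that, so p-values measure only the spread between these samples. The edgeR test gives no SE, so each SE printed with an edgeR change was derived from it. It is the absolute log2 change divided by the square root of the F statistic of that test. Within a line, log2 ratios use a prior count of 2 and exact binomial 95% intervals, with no test. Percent values are counts over the scaled library size without a prior count. DESeq2 1.42.0, limma 3.58.1 on log2(FPKM + 1), other filters and other scalings were alternatives. The edgeR fits were tested on simulated data. For the treatment over both lines, 80% of planted 1.5-fold changes and 100% of planted 2-fold changes were recovered. Of 212 calls at an adjusted p under 0.05 there, 22 were false, a larger share than the threshold names. Changes were planted only in genes with higher mean counts and had the same size in both lines. The simulation therefore held no difference between the lines in response and does not cover genes whose response differs. Named were all members, LINC01291, listed genes past the threshold, up to 3 further genes per list by size of change, the 3 nearest genes of the 3 members with the largest change, up to 3 pseudogenes per parent, and genes of the fixed marker lists; any other gene is marked as named after its values were known; of the marker lists, those given by name were also picked so. A gene that this rule names is not reported here. Members and lists were chosen with earlier results of these data known. Transcript searches used GENCODE 29, with 1 principal protein-coding transcript per gene, in Python 3.11.15.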

Additional observations from a re-analysis of the deposited data

Results flagged for a closer look

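The log2 ratios of siLINC01291 to siNC had opposite signs in A375 and SK-MEL-28 for 2 members and 3 genes of the wider lists; the difference between the lines was not tested for any of them. ACSL4 had a ratio of 0.33 in A375 but -0.04 in SK-MEL-28, a difference of 0.37 (A375 minus SK-MEL-28), and its SK-MEL-28 interval includes 100% of siNC. LPCAT3 stood at 0.07 and -0.39, a difference of 0.46, and its A375 interval includes 100%. The elongase ELOVL2 stood at 0.01 and -0.66, a difference of 0.67, at an FPKM of 0.623 in A375 siNC. Its A375 interval (72.7 to 139.0% of siNC) includes 100%, so its A375 ratio has no firm sign. CHAC1, which degrades glutathione, stood at -1.53 and 0.41, a difference of -1.93, and neither interval (30.4 to 39.2% and 108.6 to 163.1% of siNC) includes 100%. SAT1, the polyamine acetyltransferase, stood at 0.87 and -0.11, a difference of 0.98, with intervals of 164.4 to 204.0% and 89.2 to 96.7%.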

How the results depend on the processing

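No alternative reversed a change of a member over both lines or between the lines. Without the cell line as a block, 0 members fell in place of 1, 0 of the wider list genes in place of 3, and 0 genes were called in either direction in place of 91 lower and 30 higher (edgeR; 42 and 9 at an unadjusted p under 0.05). Limma on log2(FPKM + 1) called 0 members, 5 genes lower and 1 higher. An FPKM minimum of 5 gave 0 members, 27 lower and 5 higher, and no filter 238 and 146; DESeq2 gave 203 and 99. Between the lines, DESeq2 called 2 members lower in place of 4, and the FPKM minimum of 5, which tests fewer genes, called 2997 genes lower and 3003 higher in SK-MEL-28. ACSL1 lost its call with DESeq2 size factors (edgeR adjusted p = 0.0515). Under the deposited CPM the median of all expressed genes moved to 0.04 in both lines, and the A375 ratio of NCOA4 turned from -0.03 to 0.01. Other causes of these changes were not tested. LPCAT3, with 183 to 415 counts, has the widest counting intervals among the members.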

Other observations

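The following genes of heme breakdown, which frees iron inside the cell, were chosen after their values were seen, from lines that differ in 72.4% of all genes tested. HMOX1, heme oxygenase 1, had an FPKM of 27.1 and 29.4 in A375 and of 252 and 311 in SK-MEL-28 (siNC, then siLINC01291), a log2 line difference of 3.47 (SE 0.09). For HMOX2, the other heme oxygenase, the line difference was 0.41 (SE 0.10). The biliverdin reductases BLVRA and BLVRB had line differences of 2.04 and 1.77. With siLINC01291 over both lines HMOX1 stood at 0.18 and BLVRB at 0.32, and neither passed (edgeR adjusted p = 0.350 and 0.225). In the list of heme and iron-sulfur cluster genes, 13 were higher and 5 lower in SK-MEL-28 of 22 tested, beside 36.1% higher and 36.3% lower over all genes tested.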
